A study of Mus musculus with 8 samples.

Results

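The genes described here are 10 members of the AP-1 transcription factor family and of the immediate early genes around it: Fos, Fosb, Fosl1, Fosl2, Jun, Junb, Jund, Atf3, Egr1 and Ier2. They were chosen by name. Where the platform annotation gives several probe sets to 1 symbol alone, the brightest on average was used. This left 9 of the 10 with a value, among 22180 genes measured. Fosl1 has no probe set of its own and is not analysed here. RNA of 8 mouse tumours, 1 array per tumour, was measured on Affymetrix arrays. Their labels are identical and make a single group (n = 8): primary subcutaneous tumours grown from neural crest cells (NCCs) transduced with N-Myc, the injected cells being a mixture of p53+/- and p53-/- NCCs. About 10000 cells were injected 48 hours after infection into nude or C57Bl/6 mice, and tumours were removed after about 50 days. The labels do not say which host a tumour grew in, which p53 genotype its cells had, or whether tumours came from different animals or cultures, so the p-values below cover only the spread between these samples.

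AP-1 is a dimer of basic leucine zipper proteins. Fos proteins pair with Jun proteins, Jun proteins can also pair with each other, and Atf3 pairs with Jun proteins or with itself. The dimers bind the DNA site TGANTCA, or the closely related cyclic AMP response element, of which TGACG is the conserved core. Fos, Fosb, Junb, Egr1 and Ier2 are classic immediate early genes: growth factors, through MAP kinases, Elk1 and serum response factor (SRF), switch on their transcription without new protein synthesis, and the RNA is short-lived. Egr1 is a zinc finger factor and not a part of AP-1, and Ier2 encodes a nuclear protein outside both families. In the rat pheochromocytoma line PC12, a model of the sympathoadrenal lineage, nerve growth factor induces Fos and Egr1.

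The RefSeq promoter table (build GRCm38.p6) held 7 of the 10 members. The stretches of 250 bases before the annotated gene start are shown for Fos, Junb, Fosl2, Jun and Atf3. Over the tumours, Pearson's r was 0.90 for Fos and Junb, 0.78 for Fosl2 and Junb and 0.81 for Jun and Atf3. For Fos and Fosl2 it was only 0.58 (exact permutation p = 0.137, adjusted 0.447). None of these pairs passed the adjustment described below. Capitals mark matches, on either strand, to the AP-1 site TGANTCA, the spaced site TGANNTCA, the core TGACG, the TATA box TATAAA or the CArG box, the binding site of SRF. On the minus strand the core reads CGTCA. Sequences read 5′ to 3′ on the gene's strand.
Fos, chr12:85473640-85473889, plus strand: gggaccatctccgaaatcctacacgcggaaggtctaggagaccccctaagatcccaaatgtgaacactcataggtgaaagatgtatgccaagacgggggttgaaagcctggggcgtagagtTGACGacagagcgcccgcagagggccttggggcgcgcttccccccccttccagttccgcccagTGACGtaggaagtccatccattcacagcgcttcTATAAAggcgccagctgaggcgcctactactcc
Junb, chr8:84978749-84978998, minus strand: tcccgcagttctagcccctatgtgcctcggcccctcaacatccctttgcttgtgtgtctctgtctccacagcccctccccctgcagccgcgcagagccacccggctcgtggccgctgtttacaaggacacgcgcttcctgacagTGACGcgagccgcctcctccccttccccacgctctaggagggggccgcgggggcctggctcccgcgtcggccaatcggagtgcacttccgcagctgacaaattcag
Fosl2, chr5:32136222-32136471, plus strand: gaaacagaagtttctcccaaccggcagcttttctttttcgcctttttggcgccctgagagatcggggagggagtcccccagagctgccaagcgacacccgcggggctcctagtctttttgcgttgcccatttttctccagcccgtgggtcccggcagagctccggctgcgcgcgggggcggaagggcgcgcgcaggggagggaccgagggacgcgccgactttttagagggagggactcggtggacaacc
Jun, chr4:95052223-95052472, minus strand: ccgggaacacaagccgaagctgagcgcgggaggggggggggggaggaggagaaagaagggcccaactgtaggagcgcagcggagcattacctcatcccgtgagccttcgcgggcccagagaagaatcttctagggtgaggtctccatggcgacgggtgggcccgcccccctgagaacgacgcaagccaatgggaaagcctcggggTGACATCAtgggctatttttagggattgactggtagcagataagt
Atf3, chr1:191183334-191183583, minus strand: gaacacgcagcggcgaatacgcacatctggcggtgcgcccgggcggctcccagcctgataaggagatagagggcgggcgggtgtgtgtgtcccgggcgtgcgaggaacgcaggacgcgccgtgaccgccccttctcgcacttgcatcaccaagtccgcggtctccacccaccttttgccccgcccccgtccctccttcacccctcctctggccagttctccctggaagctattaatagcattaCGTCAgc
The Fos window held TGACG at -129 to -125 and at -66 to -62, counted back from the gene start, and TATAAA at -33 to -28. Junb held TGACG at -106 to -102, Atf3 held its reverse at -7 to -3, and Jun held TGACATCA, a match to TGANNTCA known as an AP-1 site of the gene's own promoter, at -45 to -38. The Fosl2 window held none of the searched letters. Of all 32851 promoter windows of this length, 17.8% held TGACG, 11.9% TGANNTCA, 6.75% TGANTCA, 12.4% TATAAA and 1.47% a CArG box. Matches to TGANNTCA can overlap matches to TGACG. A match is a description of the letters and not of binding. None of the windows shown held a CArG box, but sites more than 250 bases before the gene start were not searched. The absence of a match therefore does not mean that a gene lacks such a site.

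Of the 9 measured members, 8 were above the array background, the exception being Fosb. Over all genes 57.3% were called above background. The background is the 95th percentile, on the same array, of probe sets for sensory receptors (smell, pheromones and bitter taste), between 5.45 and 5.66, and the call is limma's test of the level minus this background over all 22180 genes with Benjamini-Hochberg adjustment at 0.05. Array medians lay between 5.63 and 5.75. All levels are log2 values per probe set, and levels of different genes are not set against each other, since probe sets differ in their response. In these bulk samples, fewer cells of a type and less RNA per cell cannot be told apart. The labelled tissue was checked with sympathoadrenal genes. Hand2, a transcription factor of sympathetic neurons, was at 10.57 ± 0.35 (mean ± SD, n = 8), and Th, whose product makes the catecholamine precursor L-DOPA, at 10.05 ± 0.91. Dopamine beta-hydroxylase (Dbh) was between 9.87 and 11.43 in 7 tumours and at 5.72, near background, in tumour 6.

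**Figure D1:**
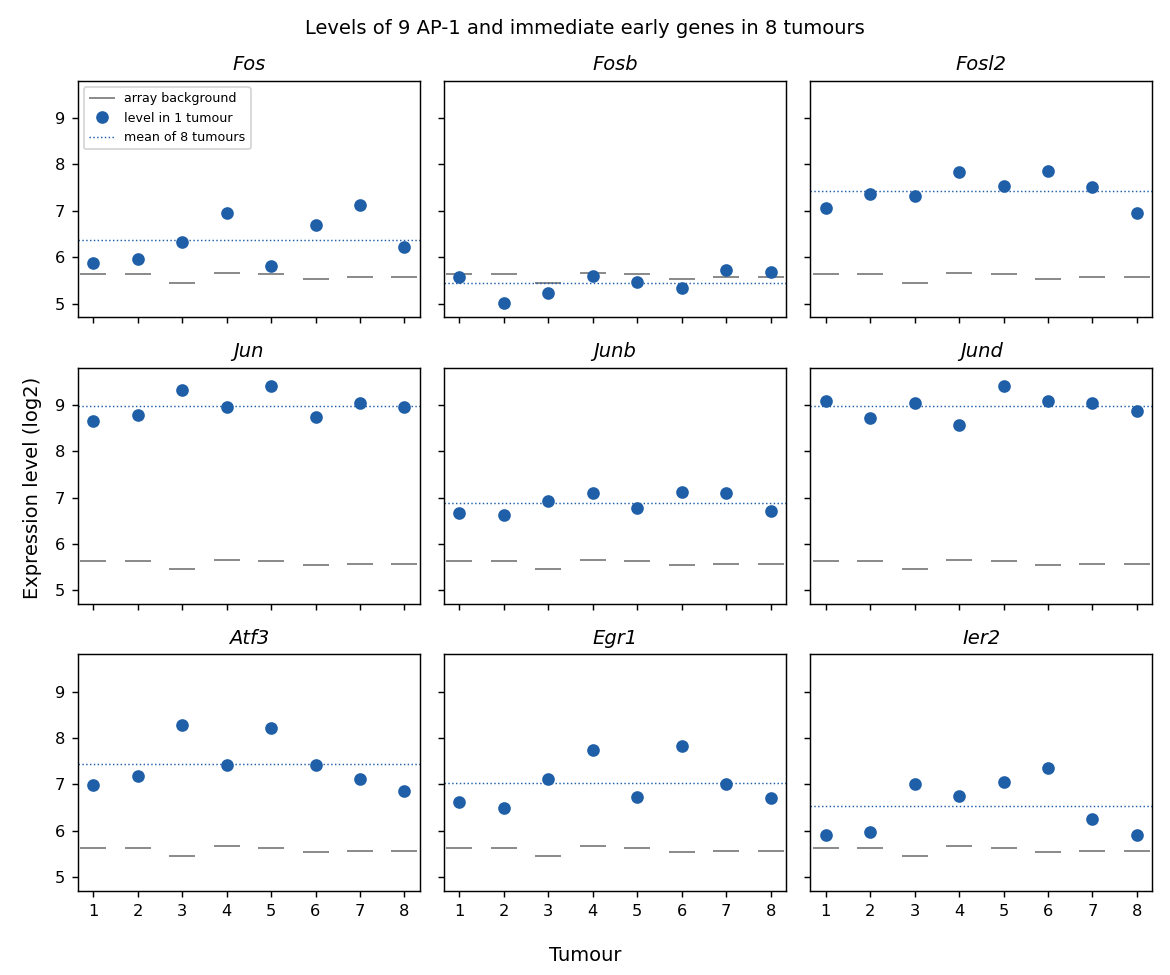
Log2 expression level (y axis) of each of the 9 measured members in tumours 1 to 8 (x axis). Points are single tumours, grey dashes the background of each array and dotted lines the mean of the 8 tumours. Fosb lies at background, Jun and Jund lie far above it, and Atf3 stands out in tumours 3 and 5 and Egr1 in tumours 4 and 6.

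Among the Fos family, Fos and Fosl2 were above background and differed in which tumours were highest. Fos, the founding partner of Jun in AP-1, was at 5.82 in the lowest tumour, 6.27 at the median and 7.12 in the highest, with a mean of 6.37 ± 0.50 (SD, n = 8). Tumours 7, 4 and 6 (7.12, 6.96 and 6.70) were the high ones, and a gap of 0.37, the widest in the order, separated them from tumour 3 at 6.33. Tumours 5, 1 and 2 (5.82, 5.88 and 5.96) were close to background and to each other. Fos averaged 0.79 ± 0.16 (SE) above background (limma, adjusted p = 0.000514) and was above it on all 8 arrays, but the call was lost against the 99th percentile of the receptor probe sets (-0.22, limma, adjusted p = 0.2). Fosl2, which encodes Fra-2, a Fos protein without the strong activation domain of Fos, ran from 6.95 through a median of 7.44 to 7.86 (7.43 ± 0.33). Tumours 6 and 4 (7.86 and 7.83) lay 0.30 above the next, tumour 5, and tumour 8 was lowest. It averaged 1.84 ± 0.11 (SE) above background (limma, adjusted p = 4.42e-09). Fosb, the Fos relative whose short splice form accumulates in neurons, ran from 5.01 through 5.52 to 5.73 (5.45 ± 0.24). It exceeded background on 2 arrays, those of tumours 7 and 8, and averaged -0.14 ± 0.08 (SE) relative to it (limma, adjusted p = 0.116). Against the 90th percentile of the receptor probe sets it would be called (0.48, limma, adjusted p = 6.59e-05).

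The Jun family was above background on every array, and its members varied less than Fos. Jun itself ran from 8.65 through 8.95 to 9.40 (8.98 ± 0.27). Tumours 5 and 3 (9.40 and 9.31) lay 0.28 above tumour 7 at 9.03, and tumour 1 was lowest. It averaged 3.39 ± 0.10 (SE) above background (limma, adjusted p = 3.72e-12). Junb, a weaker activator that can restrain Jun, had a narrow range from 6.63 through 6.85 to 7.12 (6.88 ± 0.21). Tumours 6, 4 and 7 (7.12, 7.10 and 7.09) were highest and within 0.03 of each other, as in Fos the same 3 tumours, and no gap in the order was wider than 0.16. Junb averaged 1.29 ± 0.09 (SE) above background (limma, adjusted p = 1.63e-08). Jund, the family member that is expressed steadily in resting cells, ran from 8.57 through 9.03 to 9.40 (8.97 ± 0.26). Tumour 5 was highest, 0.32 above tumour 1 (9.09), and tumour 4 lowest. Jund averaged 3.38 ± 0.09 (SE) above background (limma, adjusted p = 2.65e-12). A further Jund probe set, at 7.31 ± 0.24, was also highest in tumour 5 (7.78), but its lowest value was in tumour 8 (7.02) and not in tumour 4 (7.32). Both probe sets had tumours 5, 1 and 6 as their 3 highest.

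Atf3, Egr1 and Ier2 varied most among the members, together with Fos. Atf3, a stress-induced factor, ran from 6.85 through 7.29 to 8.27 (7.43 ± 0.54). Tumours 3 and 5 (8.27 and 8.21) stood apart: the next, tumours 4 and 6, were both at 7.41, a gap of 0.80. Egr1 ran from 6.48 through 6.87 to 7.83 (7.03 ± 0.51). Here tumours 6 and 4 (7.83 and 7.74) stood apart, 0.63 above tumour 3 at 7.11. Ier2 ran from 5.90 through 6.5 to 7.36 (6.52 ± 0.58), with the 4 tumours that were high in Atf3 or Egr1 on top, tumours 6, 5, 3 and 4 having 7.36, 7.05, 7.01 and 6.74. The other tumours lay between 5.90 and 6.25, so a gap of 0.49 separated 4 tumours from 4. Atf3 averaged 1.84 ± 0.17 (SE), Egr1 1.44 ± 0.16 and Ier2 0.94 ± 0.19 above background (limma, adjusted p = 7.2e-07, 3.22e-06 and 0.000601). The Ier2 call was lost against the 99th percentile of the receptor probe sets (-0.07, limma, adjusted p = 0.766).

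Between its highest and lowest tumour, Ier2 differed 2.74-fold, Atf3 2.67-fold, Egr1 2.54-fold and Fos 2.46-fold, and these 4 were the members with an SD of at least 0.4, which 15.4% of detected genes reached. Their SDs stood at the 90.6th to the 93.5th percentile of the 12715 detected genes, whose median SD was 0.23. The other members spanned from 1.40-fold (Junb) to 1.88-fold (Fosl2). None passed limma's test of a gene's variance against the trend of variance with level (lowest adjusted p among the members 0.749, Ier2), and neither did any other detected gene, 0.0% in all. At an unadjusted p under 0.05 in the same test, 1 detected member (Ier2) and 6.51% of detected genes passed. With 1 array per tumour, this test asks whether a gene varied more than is usual for its level and not whether it varied beyond technical noise. By tumour, none of the 9 members was above its own mean in tumour 2, 1 was in tumour 8 and 2 were in tumour 1, while 6 were in each of tumours 3, 4, 5, 6 and 7. The matching share over all detected genes was not computed. These counts therefore do not show whether the members differed from other genes in these tumours.

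The members differed in which tumours were highest. Of the 28 pairs of detected members, 9 had a Pearson's r of at least 0.7, as had 4.61% of all pairs of detected genes. With Fosb, 36 pairs were tested by exact two-sided permutation of the 40320 pairings, and p-values were adjusted over the 36 with the Benjamini-Hochberg method. On Pearson's r, 0 pairs passed (8 at an unadjusted p under 0.05), and on Spearman's rho 1 passed (6 unadjusted), namely Junb with Egr1. For this pair r was 0.89 (exact permutation p = 0.00144, adjusted 0.0518) and rho 0.98 (exact permutation p = 0.000397, adjusted 0.0143), and r was 0.89 again without tumours 4 and 6. Both genes put tumours 6 and 4 first and 1 and 2 last, and differed in the place of tumour 7, where Junb was among the highest. Without tumour 7, r was 0.99 (adjusted p = 0.00714).

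Fos and Junb, which did not pass the adjustment either, had an r of 0.90 (exact permutation p = 0.00516, adjusted 0.0929; rho = 0.74, exact permutation p = 0.0458, adjusted 0.275; r = 0.86 without tumours 4 and 7). Fos and Egr1 had an r of 0.73 (exact permutation p = 0.0462, adjusted 0.208; rho = 0.67, exact permutation p = 0.0831, adjusted 0.332; r = 0.90 without tumours 4 and 7). Fosl2 had an r of 0.80 with Egr1 (exact permutation p = 0.0198, adjusted 0.17) and of 0.78 with Junb (exact permutation p = 0.0272, adjusted 0.17), neither past the adjustment, with rho of 0.69 and 0.74 (exact permutation p = 0.0694 and 0.0458, adjusted 0.312 and 0.275) and r of 0.75 and 0.70 without tumours 6 and 8. When tumours 4 and 6 were both left out, a choice made after seeing the data, r was 0.89 for Junb and Egr1 and 0.88 for Fos and Junb, but 0.32 for Fosl2 and Egr1 and 0.53 for Fosl2 and Junb.

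Jun and Atf3 were highest in tumours 3 and 5, and their correlation, which did not pass the adjustment, rested on these. Over 8 tumours r was 0.81 (exact permutation p = 0.0215, adjusted 0.17) and rho 0.62 (exact permutation p = 0.115, adjusted 0.414), and without tumours 3 and 5 r was -0.04. Jun had an r of -0.06 with both Fos and Egr1 (exact permutation p = 0.883 and 0.885, adjusted 0.91 each), and Atf3 an r of 0.17 with Egr1 (exact permutation p = 0.738, adjusted 0.91). Ier2 had its highest values of r with members of both sets, none of them past the adjustment. Its r was 0.75 with Atf3 (exact permutation p = 0.0284, adjusted 0.17), 0.74 with Fosl2 (exact permutation p = 0.0435, adjusted 0.208) and 0.70 with Egr1 (exact permutation p = 0.0567, adjusted 0.227). The rho of these pairs was 0.79, 0.79 and 0.76 (exact permutation p = 0.0279, 0.0279 and 0.0368, adjusted 0.275 each), and r was 0.85 for Atf3 without tumours 3 and 5, 0.51 for Fosl2 without tumours 6 and 8, and 0.58 for Egr1 without tumours 4 and 6. Jund and Fosb had no r of 0.7 or more with any member.

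**Figure D2:**
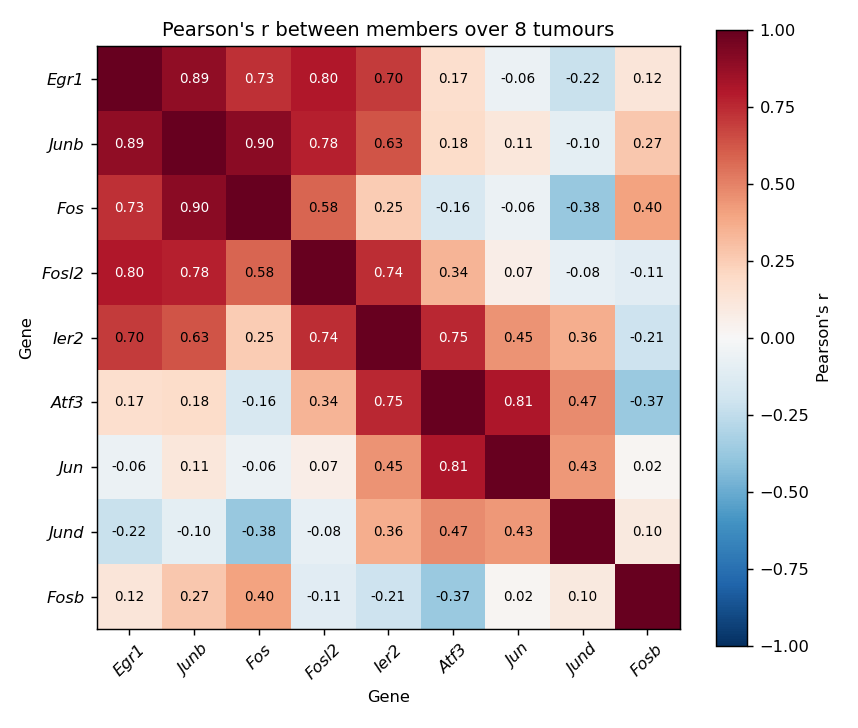
Pearson's r between each pair of the 9 measured members over the 8 tumours, with genes on both axes and the colour scale running from -1 to 1. The order of the genes was set by hand. Egr1, Junb, Fos and Fosl2 form a block of positive values from 0.58 to 0.90, and Jun and Atf3 (0.81) lie outside it. Ier2 has high values with genes of both sets (0.74 with Fosl2, 0.70 with Egr1 and 0.75 with Atf3). On r, 0 pairs passed the adjustment.

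**Figure D3:**
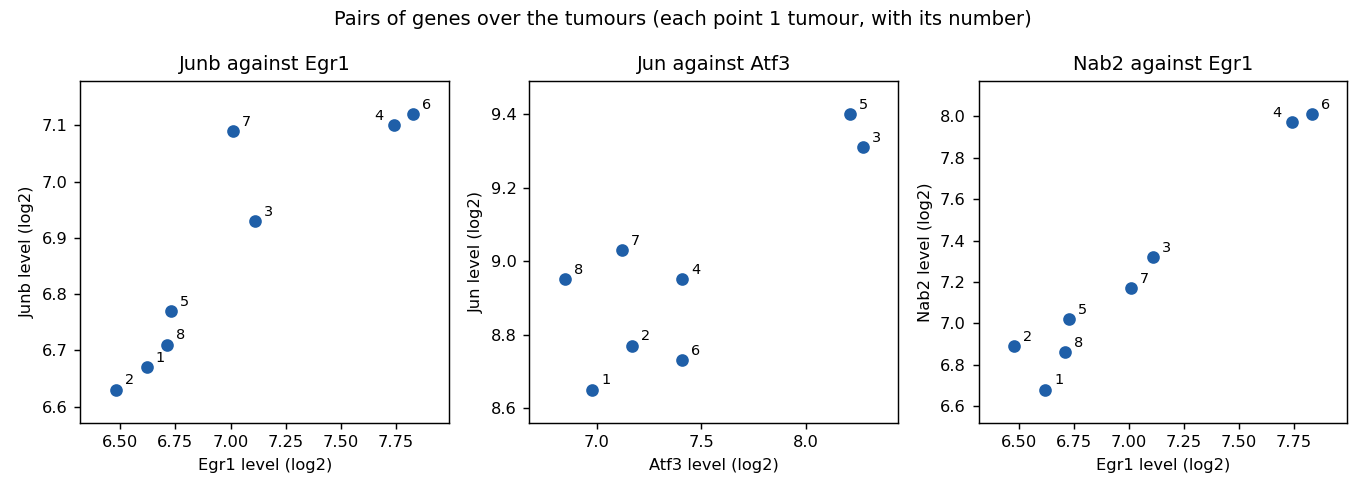
Log2 levels of Junb against Egr1, Jun against Atf3, and Nab2 against Egr1, each point 1 tumour with its number. Nab2 runs along with Egr1 over the whole range. Junb does so apart from tumour 7, where Junb (7.09) is among its highest and Egr1 (7.01) is not. Jun and Atf3 are high together in tumours 3 and 5 and have an r of -0.04 over the other 6.

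The other genes of the pathway were read from fixed lists. Of the kinase cascade, 13 of 14 measured MAP kinases and activators were above background (57.3% of all genes were), all but Mapk13. Mapk10, the neuronal JNK3 that phosphorylates Jun, ranged from 8.04 in tumour 6 to 9.82 in tumour 8, with 9.26 or more in the 7 tumours other than 6. Of SRF and ternary complex factor regulators 9 of 10 were above background, all but myocardin (Myocd). Rps6ka5, the most variable of those detected (SD 0.41), was lowest in tumour 6 (6.02, against 6.56 to 7.38 elsewhere). Srf itself was at 8.80 ± 0.24 and highest in tumour 6 (9.28), Elk3, a ternary complex factor, reached 7.62 in tumour 4, with 6.40 to 6.96 elsewhere, and Mrtfb, an actin-regulated SRF coactivator, reached 8.34 and 8.27 in tumours 4 and 6, with 7.52 to 7.98 elsewhere. All 18 phosphatases and feedback genes of MAPK signalling were above background. Dusp6, the ERK phosphatase, had 8.03 and 7.96 in tumours 4 and 7, 2 of the 3 tumours highest in Fos, and lowest in tumour 2 (7.0). Dusp16, a phosphatase for JNK and p38, had 9.24 and 8.75 in tumours 5 and 3, where Atf3 was highest, and 7.46 to 8.30 elsewhere. Etv5, an ETS factor downstream of ERK, was highest in tumour 1 (8.44) and lowest in tumour 5 (6.10), and Spry1, a receptor tyrosine kinase inhibitor, ran from 7.69 to 8.67.

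Of 34 other immediate early genes, 30 were above background, and their median SD was 0.30. The 4 with the largest SD were the RNA-binding protein genes Zfp36l1 and Zfp36l2, which promote decay of short-lived mRNAs, and the orphan nuclear receptor genes Nr4a1 and Nr4a2. All 4 had their highest levels in tumours 4 and 6. Nr4a1 (Nur77) had 9.67 and 9.26 in tumours 6 and 4, and 7.74 to 8.45 in the others. Zfp36l2 was at 9.13 and 8.41 in tumours 6 and 4, against 7.21 to 8.02, and Zfp36l1 9.85 and 8.54 in tumours 4 and 6, against 7.13 to 8.38. Nr4a2 had 8.83 and 8.32 in tumours 6 and 4, and 8.27 in tumour 2. Altogether 9 of the 30 (Egr2, Ier3, Nr4a1, Nr4a2, Klf10, Zfp36l1, Zfp36l2, Gadd45b and Sik1) had tumours 4 and 6 as their 2 highest, as had Fosl2, Junb and Egr1 among the members, while 8.88% of all detected genes did. Only Rhob of the 30 had tumours 3 and 5 as its 2 highest, as had Jun and Atf3, and 6.97% of all detected genes did. These counts were chosen after the levels were seen. Klf6 went the other way and was lowest in tumour 6 (9.13, against 9.89 to 10.81).

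Genes known as AP-1 targets were partly below background, with 12 of 18 measured above it, and the interstitial collagenase gene Mmp13 and stromelysin gene Mmp3 among those not called. The detected ones with the largest SD were Hmox1, Timp1, Ccl2 and Fn1. Hmox1, heme oxygenase, had 8.68, 8.54 and 8.00 in tumours 5, 3 and 6, against 6.5 to 7.40 elsewhere. Timp1, an inhibitor of matrix metalloproteinases, was at 9.50, 9.09 and 8.68 in tumours 3, 6 and 5, against 7.33 to 7.72, and Ccl2, a monocyte chemokine, at 7.82, 7.77 and 7.53 in the same 3, against 6.39 to 7.04. Tumours 3, 5 and 6 are also the 3 with the highest Ier2. Fn1 had another order, with 10.65, 10.35 and 10.3 in tumours 6, 7 and 3 and only 9.44 in tumour 5. The mean of all 13 fibroblast and pericyte genes was 8.52, 7.87 and 8.27 in tumours 3, 5 and 6, 8.31 in tumour 7 and 7.55 to 7.96 in the others. The mean of all 13 skeletal muscle genes was 7.28, 5.83 and 7.82 in tumours 3, 5 and 6 and 5.96 to 7.09 in the others. The part of these cell types in the levels of the target genes was not tested. Mmp3, not called (mean 5.16), was above background only in tumours 3 (6.35) and 5 (6.20). Other bZIP partners and relatives numbered 17 of 18 above background, all but Batf3 (5.78, limma, adjusted p = 0.052), and only Nfe2l2 (Nrf2), a factor of the oxidative stress response, had an SD of at least 0.4. It was at 9.19, 9.0, 8.82 and 8.75 in tumours 6, 3, 4 and 5 and at 8.19 or lower in the others, the same 4 tumours as Ier2. Atf4, the factor of the integrated stress response upstream of Atf3, was highest in tumours 3 and 5 (8.71 and 8.58, against 8.05 to 8.31). Atf5 and Ddit3 of the same list had larger SDs (0.37 and 0.34, against 0.24 for Atf4) and other orders. Atf5 was highest in tumours 1 and 3 (9.35 and 9.3), and Ddit3 in tumours 3 and 7 (8.16 and 7.99). Their r with Atf3 was 0.15 and 0.23. All 14 cytoskeletal targets of SRF were above background, with Tagln, Tpm1, Acta2 and Cnn1 varying most. Tagln, a smooth muscle actin-binding protein, was at 8.37 in tumours 4 and 5, and Acta2 was highest in tumour 5 (10.74).

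**Figure D4:**
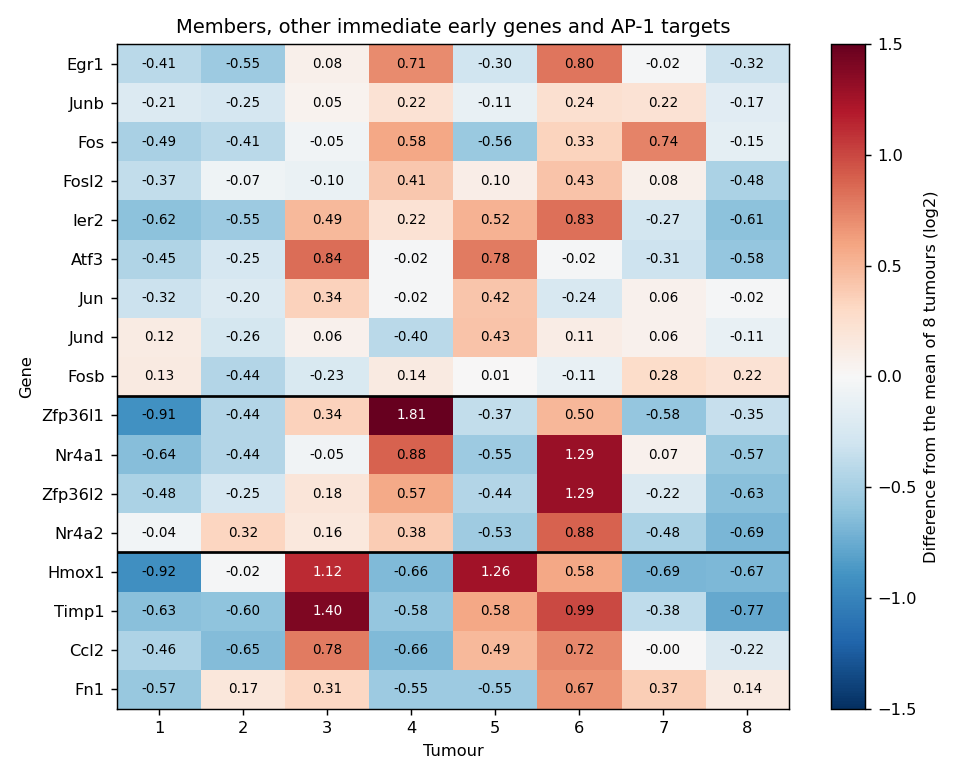
Difference of each gene from its own mean over the 8 tumours (log2, colour and printed value), with genes down the page and tumours across. The upper block holds the 9 members, the middle block the 4 other immediate early genes and the lower block the 4 AP-1 targets with the largest SD. Egr1 (0.71 and 0.80), Nr4a1 (0.88 and 1.29) and Zfp36l2 (0.57 and 1.29) are high in tumours 4 and 6, Atf3 (0.84 and 0.78) and Hmox1 (1.12 and 1.26) in tumours 3 and 5, and Ier2 in all 4.

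The genes most like the 4 members with an SD of at least 0.4 were sought among the detected genes that reached the same SD, by Pearson's r over the 8 tumours, as a description with no test. Egr1 had the closest companions: Nab2, a corepressor that binds Egr proteins and is itself switched on by Egr1 (r = 0.98), Frmd6, a FERM domain protein (0.97), and Nr4a1 (0.97). Nab2 had 8.01 and 7.97 in tumours 6 and 4, against 6.68 to 7.32 elsewhere, the same 2 tumours that led Egr1. The genes nearest to Atf3 were Mdga2, a synaptic adhesion regulator (0.98), Sipa1l1, a postsynaptic Rap GTPase activator (0.93), and Prorp, the mitochondrial RNase P nuclease (0.93). Mdga2 was at 8.93 and 8.77 in tumours 3 and 5, against 7.5 to 8.12. For Ier2 they were Ppfibp1, a liprin (0.97), Il4ra, the interleukin 4 receptor (0.96), and Nfe2l2 (0.95). For Fos they were Abca1, a cholesterol exporter, Efna3, an ephrin, and Gfra1, the co-receptor of GDNF, all at 0.84. Of the other detected genes, 1.64% had an r of at least 0.7 with Fos, 6.58% with Atf3, 8.27% with Egr1 and 9.78% with Ier2.

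Markers of other cell types and states also differed between tumours. No relation of a member with them passed the adjustment, and their part in the members' values was not tested. Tumours 4 and 6, the highest in Egr1, also held the highest levels of Schwann cell and glia genes: the mean of all 9 measured genes was 8.68 and 7.49 in tumours 4 and 6, against 5.67 to 6.42 in the others, and Sox10, the glial transcription factor, was at 8.32 and 8.05, against 5.43 to 6.30. Egr1 and the mean of the 6 detected glia genes had an r of 0.88 (exact permutation p = 0.0155, adjusted 0.652; rho = 0.74, exact permutation p = 0.0458, adjusted 0.732), but 0.16 without tumours 4 and 6. All 12 sympathoadrenal genes were above background, and their mean was lowest in tumour 6 (8.40, against 9.68 to 10.47 in the others). With the mean of these genes the r of Egr1 was -0.77 (exact permutation p = 0.0147, adjusted 0.652; rho = -0.71, exact permutation p = 0.0576, adjusted 0.732), and -0.45 without tumours 2 and 6. Macrophage genes, 13 of 15 above background, were highest in tumours 3 and 6 (mean of all 15 at 8.69 and 8.41, against 7.55 to 8.18). Ier2 had an r of 0.74 with them (exact permutation p = 0.0378, adjusted 0.652; rho = 0.71, exact permutation p = 0.0576, adjusted 0.732; r = 0.52 without tumours 3 and 6), and Egr1 one of 0.69 (exact permutation p = 0.0601, adjusted 0.652; rho = 0.79, exact permutation p = 0.0279, adjusted 0.732; r = 0.78 without tumours 3 and 6).

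In all, 99 relations of the 9 members with 10 lists and with the array background were computed, and 0 passed the adjustment on either measure (4 at an unadjusted exact permutation p under 0.05 on r, and 4 on rho). Without tumour 8, 1 passed, that of Fosl2 with the heat shock genes (r = 0.95, exact permutation p = 0.000198, adjusted 0.0196). Of 10 measured heat shock genes 8 were above background. Of these, 4 (Hspa1b, Hspa8, Hsph1 and Hspd1) had tumours 4 and 6 as their 2 highest, as had 8.88% of all detected genes. This count, too, was chosen after the levels were seen. Hspa8 ran only from 12.23 to 12.36, and Hspa1b had 6.8 and 6.72 in tumours 4 and 6 against 6.66 in tumour 8. Hsph1 had 9.60 and 8.85 in tumours 6 and 4, against 7.88 to 8.83, while Bag3 was highest in tumour 8 (9.43). Members and array background had r between -0.38 and 0.23 (exact permutation p of 0.364 or more, adjusted 0.769 or more).

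Tumour 5, which with tumour 3 was highest in Atf3 and Jun, was the one tumour with clear keratinocyte genes: the mean of all 7 measured was 6.95 there, against 5.21 to 5.46 in the others, and Krt14, a basal keratin, was at 9.13, against 4.82 to 5.29. In tumour 3 this mean was 5.46. The part of keratinocytes in the levels of Atf3 and Jun was not tested. The lists of endothelium (10 of 12 above background), fibroblasts and pericytes (12 of 13), skeletal muscle (8 of 13), cell cycle (14 of 14) and hypoxia and glycolysis (11 of 13) had, like the lists above, no relation past the adjustment. The lowest p on rho was that of Fosb, itself not above background, with the cell cycle genes (r = -0.71, exact permutation p = 0.0475, adjusted 0.652; rho = -0.86, exact permutation p = 0.0107, adjusted 0.732; r = -0.58 without tumours 4 and 7). Lymphocyte and granulocyte genes were mostly below background, with 1 of 9 T cell and 2 of 8 neutrophil genes called. Cd3e, a T cell receptor component, was below background on every array (5.30 at most), as was the 1 neutrophil marker Ly6g (3.96 at most). The 1 measured red blood cell gene was not called, and 2 of 7 keratinocyte genes were.

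**Figure D5:**
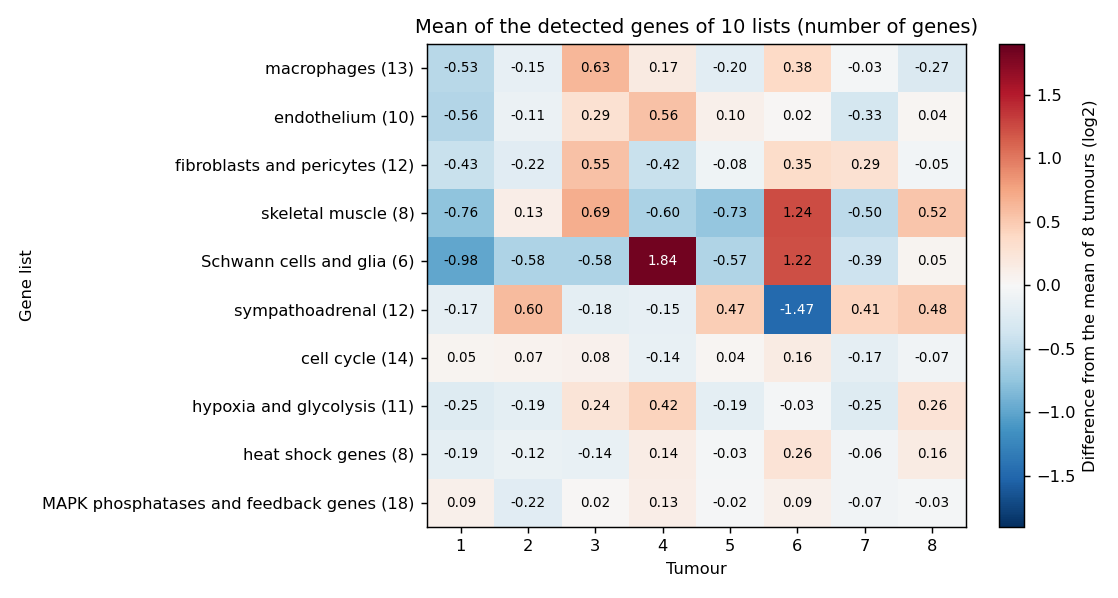
Mean difference from each gene's own mean (log2, colour and printed value) over the detected genes of 10 lists (number of genes in brackets), by tumour. The Schwann cell and glia genes are at 1.84 and 1.22 in tumours 4 and 6, the sympathoadrenal genes at -1.47 in tumour 6, and the macrophage genes at 0.63 and 0.38 in tumours 3 and 6.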

How the data were processed

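Biotinylated cRNA of Trizol-extracted RNA was hybridized to 1 array per tumour (8 tumours, 1 group). The deposited values are log2 expression levels of 41345 probe sets, for which the submitters' processing notes name RMA and Partek 6.5 without their roles. Their range (2.07 to 13.61) shows a log2 scale. For build, options and filters: not given in the sources used here. By the platform annotation, 23521 probe sets had 1 symbol, 1814 several and 16010 none, and genes were named only from the first. Arrays carry no molecule counts, and their number limits the precision. Detection and variance were tested with limma 3.58.1 in R 4.3.3 (linear model, moderated variance with trend and robust prior) over all 22180 genes, with 1440 receptor probe sets as background, checked on simulated data. Correlations used Python 3.11.15 with numpy 2.4.6 and pandas 2.3.3, and each r was repeated leaving out those 2 tumours that lay farthest from the first gene's (or list's) median. Of 292 entries in 20 gene lists, 262 had a value. Named genes are the members, up to 4 detected genes of each list with the largest SD, the 3 genes most like each of 4 members, and cell type markers; any other was named after its values were seen. Members and lists were chosen with earlier results of these data known. Alternatives were other background levels, probe set averaging, other scaling, another prior, Spearman's rho and left-out tumours.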

Additional observations from a re-analysis of the deposited data

Results flagged for a closer look

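Each of the 78 genes considered (members and the most variable genes of each list) was checked for a single tumour far from the other 7. For genes not picked by their spread, chance flags about 1 in 20. The list genes were picked for a large spread, so this rate need not hold for them. None of the 9 members had such a tumour, and 5 list genes did, a number close to what that rate gives for 78 genes. Elk3 stood at 7.62 in tumour 4, against 6.96 in the next. Mapk10 was at 8.04 in tumour 6, against 9.26 in the next lowest, and Dbh was at 5.72 there, against 9.87. Krt10 was at 7.68 in tumour 5, against 6.75 in the next, and Lor, the cornified envelope protein loricrin, at 6.84 in tumour 5, against 6.14.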

How the results depend on the processing

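The background level decides the calls of dim members. Fosb was at 1.98 and 0.48 above the median and the 90th percentile of the receptor probe sets, and Fos and Ier2 at -0.22 and -0.07 relative to the 99th. Against the median, the calls were 7 neutrophil, 9 T cell, 13 skeletal muscle, 7 keratinocyte and 1 red blood cell genes, and against the 90th percentile 4 keratinocyte and 1 red blood cell genes. Against the 99th they were 10 other AP-1 bZIP genes, 10 MAPK phosphatase and feedback genes, 7 AP-1 targets, 6 endothelial, 5 skeletal muscle and 2 Schwann cell and glia genes, and 0 neutrophil, 0 T cell and 0 keratinocyte genes. Junb with Egr1 was the 1 pair that passed with arrays centred on their median (r = 0.93, adjusted exact permutation p = 0.0232) and on Spearman's rho (1 pair), and leaving out single tumours gave 0 to 1 pairs and 0 to 1 relations. It passed without tumour 3 (r = 0.89) and without tumour 7 (r = 0.99). Pairs with r of at least 0.7 numbered 9, 6 to 10 without single tumours, and 5 without tumours 4 and 6. The r of Jun and Atf3 was -0.04 without tumours 3 and 5. Of 791 values under an alternative, 760 were counted as keeping their direction, side of the threshold or size. Some of these could not change. Centring shifts level and background alike, and averaging alters the level of no member but Jund. An SD was counted as kept if the gene's mean moved by less than its SD. The count is therefore no measure of robustness. No paired analysis was possible because there is 1 group.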

Other observations

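The genes most like Atf3 and Ier2 were unevenly spread over the chromosomes, which was looked at after seeing the data. Of the 10 detected genes nearest to Atf3, 4 lie on chromosome 12 (Mdga2, Sipa1l1, Prorp and Flrt2), and of the 100 nearest 14 do, whereas chromosome 12 holds 5.57% of the 1957 genes compared. Atf3 itself lies on chromosome 1. The mean of the 474 detected genes of chromosome 12, each relative to its own mean, was 0.26 in tumour 3 and 0.11 in tumour 5, the tumours highest in Atf3, and between -0.12 and 0.01 in the others (log2). Chromosome 2 (1012 genes) was also highest in these, with 0.14 and 0.17 in tumours 3 and 5 and between -0.1 and 0.04 in the others. The widest range of such a mean was on chromosome 13 (0.53, with 0.31 in tumour 3 and -0.22 in tumour 7). Of the 10 genes nearest to Ier2, which lies on chromosome 8, 4 lie on chromosome 11 (Mybbp1a, Trim25, Nefh and Tns3), and of the 100 nearest 22 do, against 7.36% of the genes compared. The mean of the 1025 detected genes of chromosome 11 was 0.13, 0.10, 0.09 and 0.04 in tumours 3, 5, 6 and 4, the tumours highest in Ier2, and between -0.15 and -0.01 in the others. Each chromosome was picked as the commonest among the 10 nearest genes. For Fos and Egr1 the chromosome picked in this way (1 and 10) held 6 of the 100 nearest genes each. These chromosomes held 6.29% and 4.8% of the genes compared. The cause of the uneven spread was not tested.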
